A study of Mus musculus with 4 samples.

Results

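Organic anion transporters carry bile acids, bilirubin, steroid and thyroid hormones, their conjugates and many drugs through the liver. The 8 genes described here were chosen by name from these families: 4 uptake carriers (Slco1a1, Slco1a4, Slco1b2 and Slco2b1) and 4 ATP-driven pumps (Abcc2, Abcc3, Abcc4 and Abcc6), of 22180 genes that the arrays name. A probe set is the group of array probes summarised into 1 value. All 8 genes had one, and where a gene had more, the one brightest on average was used. Slco2b1 alone had 2 probe sets. The data are from livers of C57BL/6 mice older than 2 months, and each of 4 Affymetrix arrays held RNA combined from several mice of both sexes. The Chrebp-null pool came from 6 mice without ChREBP, the sugar-responsive transcription factor encoded by Mlxipl, that ate a 70% fructose diet for 2 weeks. Its wild-type (WT) partner came from 4 mice on that diet for 2 weeks. Another WT pool came from 7 mice on the diet for 3 weeks, and its partner from 7 WT mice on regular chow. Whether the Chrebp deletion is confined to some cells and how many males each pool held are not given by the labels. No Chrebp-null mice on chow were analysed here, so a difference of the null pool is one seen on fructose.

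The SLCO proteins sit on the side of the hepatocyte that faces the blood and take organic anions up without sodium. ABCC2 pumps conjugates across the canalicular membrane into bile, whereas ABCC3 and ABCC4 pump them back across the blood-facing membrane, a route known to be used more when bile flow is blocked. In mouse liver these genes are known to respond to the nuclear receptors CAR and PXR, to the oxidant sensor NRF2 and, for Slco1a1, to male sex hormones and the male pattern of growth hormone release.

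All levels below are log2 expression values, so a difference of 1 is a doubling, and they are set side by side only within a gene, since probe sets differ in brightness. There was 1 array per group. No difference therefore has a replicate check, an SD or a p-value, and precision is limited by the 4 arrays there are. Genes were assessed if at least one of the arrays set side by side reached a floor of 3.52. The floor is the middle of the genes' average levels and is no measured background. A difference of at least 2-fold was counted. Array medians lay between 3.11 and 3.17, and Pearson's r between arrays, across 41345 probe sets, between 0.974 and 0.982. Mlxipl itself read 8.09 in the Chrebp-null pool and 9.83 in the 2-week WT pool, a difference of -1.74 in the direction of the label. The 10 hepatocyte markers examined, such as Alb and Ttr, were above the floor in every pool, with a median difference of -0.04 in the Chrebp-null comparison and -0.06 in the fructose comparison. Ass1 among them was not steady, at 4.39 on chow, 4.54 and 5.86 in the 3-week and 2-week WT fructose pools and 5.78 in the Chrebp-null pool. In bulk liver RNA, fewer cells of a type and less RNA per cell cannot be told apart.

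**Figure D1:**
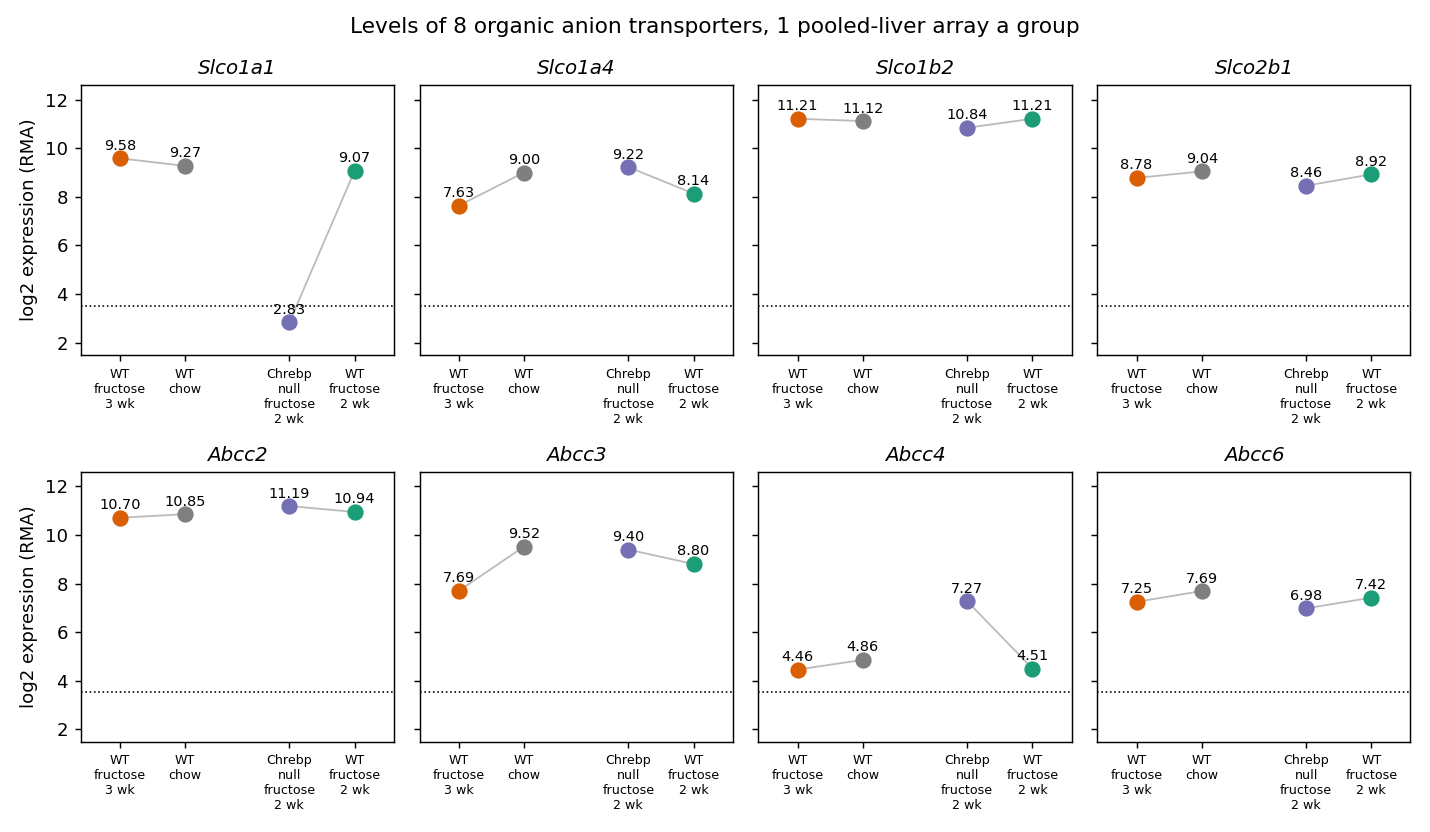
Log2 expression (vertical axis) of each transporter in the 4 pools, 1 point per array, with lines joining the pools of the 2 comparisons that share no array and a dotted line at the floor of 3.52. Slco1a1 drops below the floor in the Chrebp-null pool at 2.83, Abcc4 stands out there at 7.27, and Abcc3 and Slco1a4 are lowest in the 3-week WT fructose pool.

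The uptake carrier Slco1a1, the mouse carrier OATP1A1, which is known as male-predominant in liver, showed the widest range of the 8 genes. It read 2.83 in the Chrebp-null pool, below the floor, against 9.07 in the 2-week WT fructose pool. The measured difference was -6.24. With the null level set at the floor it was -5.55, or at least 46.7-fold lower, a little smaller than that of the pseudogene Serpina4-ps1 at -5.70, whose null level was above the floor. It read 9.58 in the 3-week WT fructose pool against 9.27 in the chow pool, a difference of 0.31. The 3 WT pools lay within 0.52 of each other and well apart from the null pool. With the 3-week WT pool in place of the 2-week pool the difference was -6.75, with the same null array in both. A single probe set reads the gene.

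Genes known as male-biased were mostly lower in the Chrebp-null pool too. Of the sex chromosome markers, Xist was lower there and the Y-linked genes were higher. Of the 13 male-biased liver genes assessed, a list that leaves out Slco1a1, 8 were at least 2-fold lower in the Chrebp-null pool and none was at least 2-fold higher, where 1.43% of all genes assessed were called lower. Their median was -1.10, against 0.10 over all genes. Among them were Serpina4-ps1 at -5.70, the elongase Elovl3 at -3.92 and the fatty acid hydroxylase Cyp4a12a at -3.06. The steroid dehydrogenase Hsd3b5 read 2.20 in the Chrebp-null pool, below the floor, against 7.47 in the 2-week WT pool. Against the 3-week WT pool 10 of 13 male-biased genes were at least 2-fold lower, where 5.33% of all genes were past 2-fold in either direction. Xist, the RNA of the inactive X chromosome, read 7.04 in the Chrebp-null pool against 8.56 in the 2-week WT pool. None of the 3 Y-linked genes was past 2-fold against the 2-week WT pool. Eif2s3y read 7.34 in the Chrebp-null pool against 6.51, Kdm5d 5.18 against 4.42 and Uty 5.39 against 4.87. Against the 3-week WT pool Eif2s3y at 1.34 and Kdm5d at 1.11 were past 2-fold, where 5.33% of all genes were. Uty stood at 0.72 and Xist at -1.74 there. Of 11 female-biased genes assessed, 1 was at least 2-fold higher and 3 were at least 2-fold lower in the Chrebp-null pool. That count depended on the WT pool: against the 3-week WT pool 8 of 13 were lower, with a median of -1.84, and the 2-week WT pool itself had 6 of 13 lower than chow, where 2.19% of all genes were past 2-fold. The part of the pools' make-up in the Slco1a1 result was not tested.

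Slco1a4, the mouse carrier OATP1A4, is a broad uptake carrier that takes up cardiac glycosides and is known to be induced through PXR. It read 7.63 in the 3-week WT fructose pool against 9.00 in the chow pool, a difference of -1.36 or 2.57-fold lower, which ranked number 31 from the lowest of 11717 genes. It read 9.22 in the Chrebp-null pool against 8.14 in the 2-week WT fructose pool, a difference of 1.09 or 2.13-fold higher, number 162 from the highest of 11631. Both WT fructose pools thus lay below chow and the null pool lay 0.23 above chow. The 2-week WT pool stood -0.86 from chow, or 1.82-fold lower, and was not past 2-fold, while the null pool over the 3-week WT pool stood at 1.59. The same chow array, or the same null array, enters each of these pairs.

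Slco1a1 and Slco1a4 are next to each other among the protein-coding genes of mouse chromosome 6 in the RefSeq table, and differed in opposite directions in the Chrebp-null comparison. Their promoter windows, from 250 bases before to 50 bases after the annotated start, are shown because these neighbours lay so far apart in the Chrebp-null pool. The sequences are RefSeq's for GRCm38.p6, at chr6:141946913-141947212 and chr6:141856171-141856470, both on the minus strand, and neither holds a match (capitals would mark it) to the 3 motifs searched on both strands.
Slco1a1: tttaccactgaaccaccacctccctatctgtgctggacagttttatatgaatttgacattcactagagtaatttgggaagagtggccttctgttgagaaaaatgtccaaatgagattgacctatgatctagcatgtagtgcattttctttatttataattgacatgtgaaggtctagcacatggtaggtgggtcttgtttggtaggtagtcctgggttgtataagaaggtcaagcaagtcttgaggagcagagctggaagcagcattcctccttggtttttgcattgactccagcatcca
Slco1a4: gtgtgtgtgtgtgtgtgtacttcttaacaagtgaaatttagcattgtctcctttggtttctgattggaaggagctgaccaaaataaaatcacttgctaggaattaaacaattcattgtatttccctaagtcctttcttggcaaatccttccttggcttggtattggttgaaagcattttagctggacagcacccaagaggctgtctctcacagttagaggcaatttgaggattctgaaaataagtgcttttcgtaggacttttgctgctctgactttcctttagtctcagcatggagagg

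The 3 motifs were the NRF2 element core TGACNNNGC, the E-box CACGTG, which ChREBP and other factors can bind in pairs, and the STAT element TTCNNNGAA. They do not overlap in the windows shown. Of 32851 windows of 300 bases in the table, 12.4% hold the NRF2 core, 7.15% the E-box and 8.30% the STAT element. Windows in the table were found for 6 of the 8 genes, 9 windows in all. No match means that these letters are not in a window.

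The related carriers Slco1c1, Slco1a5 and Slco1a6 of the Slco1 cluster on chromosome 6 read at most 3.29 in any pool, below the floor, and so were not assessed. Slco1b2, the mouse counterpart of the human carriers OATP1B1 and OATP1B3 and a major liver route for bilirubin and toxins such as phalloidin, lies in the same cluster. It read 11.21 in the 3-week WT fructose pool against 11.12 in the chow pool, and 10.84 in the Chrebp-null pool against 11.21 in the 2-week WT pool. The differences were 0.09 and -0.37, and the 3 WT pools lay within 0.09 of each other. In the Chrebp-null pool the very low Slco1a1 thus stood beside a higher Slco1a4 and a Slco1b2 that was 1.29-fold lower.

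**Figure D2:**
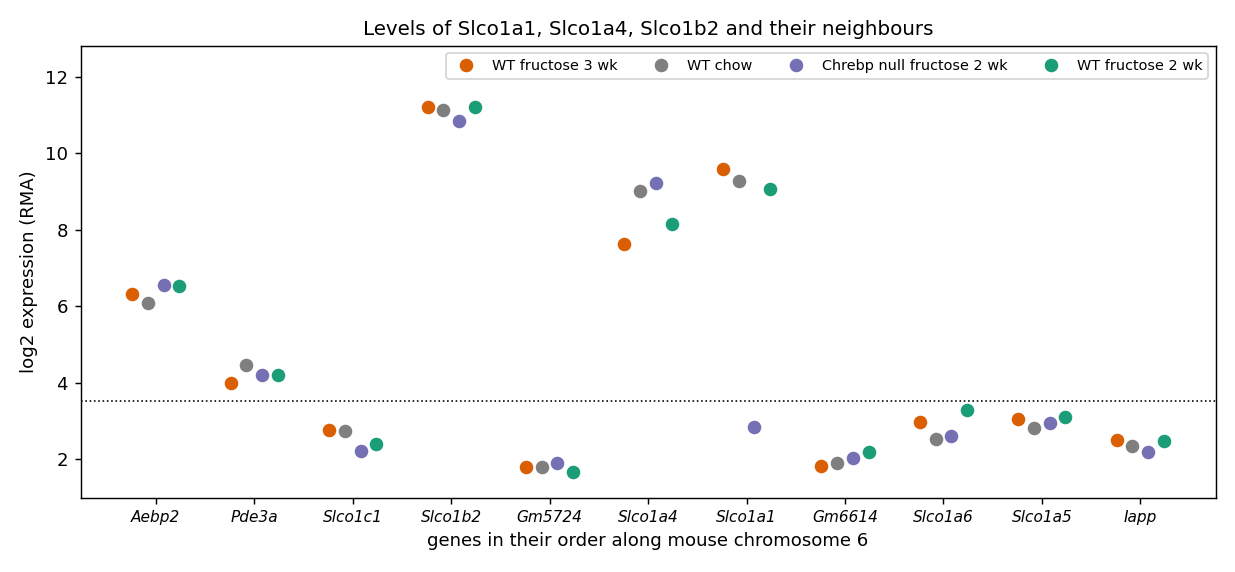
Log2 expression (vertical axis) of Slco1 cluster genes and their flanking genes, in their order along mouse chromosome 6, with 1 point per pool and a dotted line at the floor of 3.52. Slco1a1 is below the floor in the Chrebp-null pool at 2.83, next to Slco1a4, which is highest there at 9.22, and Slco1a5, Slco1a6 and Slco1c1 are below the floor in all 4 pools.

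Slco2b1, a carrier of steroid sulfates found in many tissues, read 8.78 in the 3-week WT fructose pool against 9.04 in the chow pool and 8.46 in the Chrebp-null pool against 8.92 in the 2-week WT pool. The differences were -0.27 and -0.47, under 2-fold. The null pool was the lowest and the chow pool the highest. The other Slco2b1 probe set read between 2.13 and 2.72, below the floor in every pool, and so carries no difference.

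Abcc2 encodes MRP2, the canalicular pump for bilirubin glucuronides and glutathione conjugates. It read 10.70 in the 3-week WT fructose pool against 10.85 in the chow pool and 11.19 in the Chrebp-null pool against 10.94 in the 2-week WT pool. The differences of -0.15 and 0.25 were small, and the range over the 4 pools was 0.48. Abcc6, whose protein lets ATP leave hepatocytes and so feeds the blood's supply of the mineralisation inhibitor pyrophosphate, read 7.25 in the 3-week WT fructose pool against 7.69 in the chow pool. It read 6.98 in the Chrebp-null pool against 7.42 in the 2-week WT pool, so the differences were -0.45 and -0.44. Abcc6 was lowest in the null pool and highest on chow, an order of pools that Slco2b1 shared.

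Abcc3 encodes MRP3, which returns glucuronides and bile acids to the blood. It read 7.69 in the 3-week WT fructose pool against 9.52 in the chow pool, a difference of -1.82 or 3.54-fold lower, number 8 from the lowest of 11717 genes. The 2-week WT fructose pool stood -0.72 from the same chow array, or 1.64-fold lower, so the count of Abcc3 past 2-fold rested on the 3-week pool. The WT fructose pools differed from each other by -1.11 (3 weeks over 2 weeks), which is 2.16-fold and the single difference past 2-fold between them among the 8 genes. In all, 2.37% of genes were past 2-fold between those pools. Abcc3 read 9.40 in the Chrebp-null pool against 8.80 in the 2-week WT pool, a difference of 0.59 under 2-fold, which was 1.70 against the 3-week WT pool, where 5.33% of genes were past 2-fold. The null pool stood -0.12 from chow.

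Abcc4 encodes MRP4, a blood-facing pump for bile acids, cyclic nucleotides and steroid sulfates. It read 7.27 in the Chrebp-null pool against 4.51 in the 2-week WT fructose pool, a difference of 2.77 or 6.80-fold higher, number 7 from the highest of 11631 genes. Against the 3-week WT pool, with the same null array, the difference was 2.81. It read 4.46 in the 3-week WT fructose pool against 4.86 in the chow pool, a difference of -0.40. The 3 WT pools lay within 0.40 of each other, and the null pool lay 2.41 above the highest of them, the chow pool. Unlike Slco1a4 and Abcc3, whose null levels were within 0.23 of chow, Abcc4 was thus well above every WT level.

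The 2 promoter windows that RefSeq lists for Abcc4 are shown because both hold the NRF2 element core, which 12.4% of all windows hold, and the first also holds an E-box. They lie in GRCm38.p6 at chr14:118706170-118706469 and chr14:118676882-118677181 on the minus strand, and capitals mark motif matches.
Abcc4 window 1: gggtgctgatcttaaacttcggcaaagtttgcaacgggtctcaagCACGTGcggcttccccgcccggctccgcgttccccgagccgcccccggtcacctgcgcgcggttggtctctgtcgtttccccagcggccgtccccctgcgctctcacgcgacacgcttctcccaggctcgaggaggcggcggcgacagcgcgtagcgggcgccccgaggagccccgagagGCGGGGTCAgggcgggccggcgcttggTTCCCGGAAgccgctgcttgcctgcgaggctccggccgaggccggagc
Abcc4 window 2: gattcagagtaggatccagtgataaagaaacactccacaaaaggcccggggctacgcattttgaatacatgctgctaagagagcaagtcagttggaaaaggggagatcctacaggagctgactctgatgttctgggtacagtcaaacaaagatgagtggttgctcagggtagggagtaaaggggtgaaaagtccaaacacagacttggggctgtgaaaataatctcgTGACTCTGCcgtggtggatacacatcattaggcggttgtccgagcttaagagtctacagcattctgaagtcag
In window 1 the capitals are, in order, the E-box CACGTG, the NRF2 core on the other strand (GCGGGGTCA) and the STAT element TTCCCGGAA. In window 2 they are the NRF2 core TGACTCTGC. The Abcc2 window held the core TGACATAGC, and matches to the STAT element were found in the Slco1b2 window and in 2 of 3 Slco2b1 windows. Such matches describe letters and show no binding.

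Counted over the genes, 2 of the 8 (Slco1a4 and Abcc3) were at least 2-fold lower in the 3-week WT fructose pool than on chow, where 1.16% of the 11717 genes assessed were lower, and none was at least 2-fold higher, where 0.640% were. The median difference of the 8 was -0.34, against -0.05 over all genes. With the 2-week WT pool over chow none of the 8 was past 2-fold, where 2.19% of genes were. In the Chrebp-null comparison 2 of the 8 (Slco1a4 and Abcc4) were at least 2-fold higher, where 2.03% of the 11631 genes were, and 1 (Slco1a1) was at least 2-fold lower, where 1.43% were. Their median was -0.06, against 0.10 over all genes. Against the 3-week WT pool, with the null array in both, Abcc3 passed 2-fold as well, where 5.33% of genes were past it. All 8 passed the floor in both comparisons, Slco1a1 through its WT array in the second. The counts over all genes depend on scaling: once the trend of the difference with level was removed, the fructose comparison had 93 genes higher and 105 lower against 75 and 136 as deposited, and the Chrebp-null comparison 140 and 225 against 236 and 166. That removal moved the median of all genes by -0.10 in the Chrebp-null comparison, and the Slco1a4 difference there to 1.04.

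**Figure D3:**
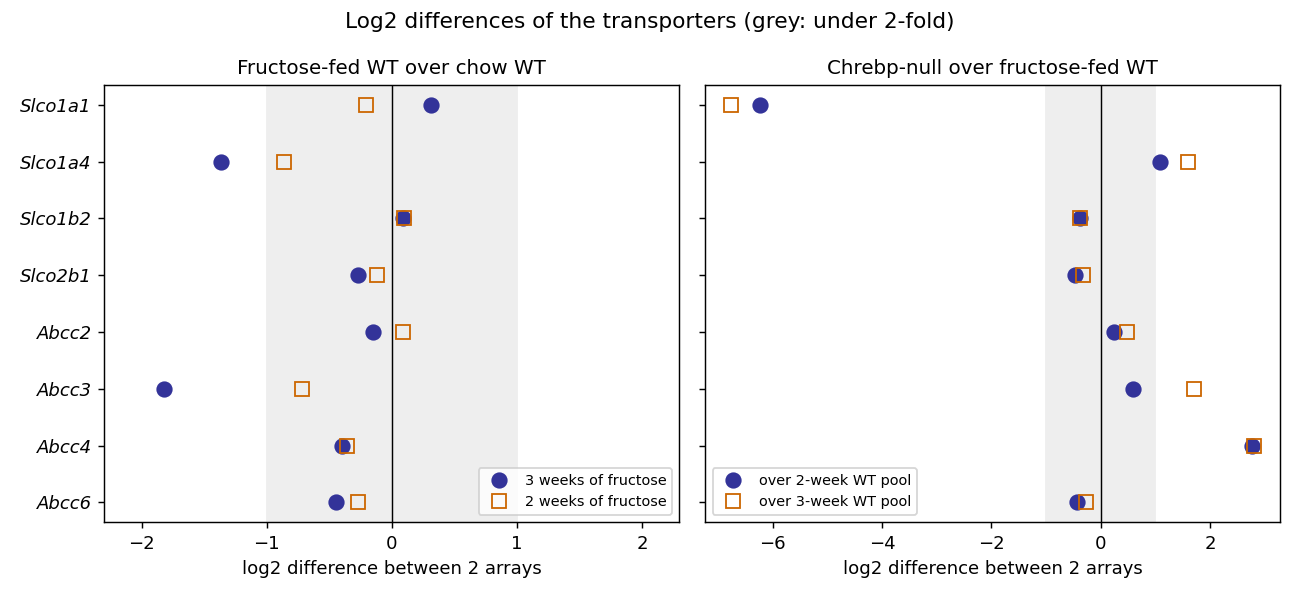
Log2 difference between 2 arrays (horizontal axis) for each transporter, fructose-fed WT over chow WT at left and Chrebp-null over fructose-fed WT at right, with filled circles for the comparisons of the study design, open squares for the other WT fructose pool and a grey band for differences under 2-fold. At left Slco1a4 and Abcc3 leave the band on the lower side with the 3-week pool alone, at -1.36 and -1.82. In the Chrebp-null panel Slco1a1, Slco1a4 and Abcc4 lie outside it with either WT pool.

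**Figure D4:**
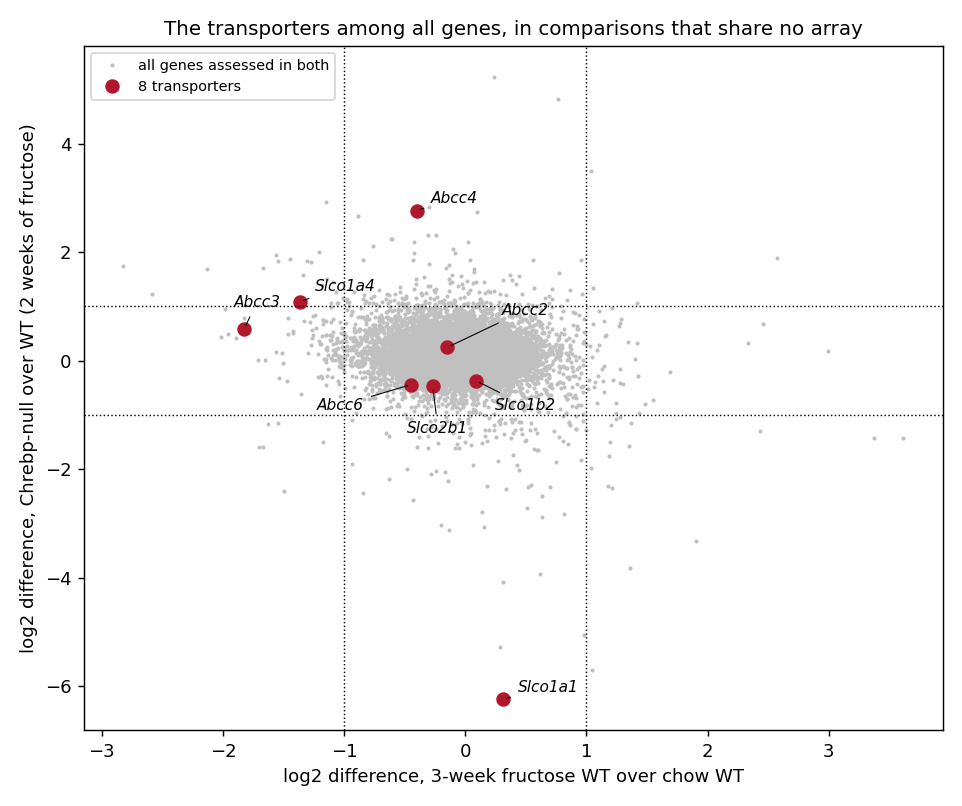
Each point is a gene assessed in both comparisons, with the log2 difference of 3-week fructose WT over chow WT on the horizontal axis and that of the Chrebp-null pool over the 2-week WT fructose pool on the vertical axis, and dotted lines at 2-fold. Slco1a1 lies at the lower edge at -6.24, Abcc4 near the upper edge at 2.77, and Slco1a4 in the upper left corner past 2-fold on both axes.

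The other carriers of the liver were listed to set the 8 genes beside their relatives. Of 12 other uptake carriers with a probe set, 4 were assessed, and none was past 2-fold in either comparison. With the 3-week WT pool in place of the 2-week pool, Slco2a1 stood at 1.13 and Slc22a7 at -1.61 in the Chrebp-null pool, both past 2-fold. Of all genes 5.33% were past 2-fold against that pool. Slc10a1, the sodium-dependent bile acid carrier NTCP, read 11.96 in the 3-week WT fructose pool against 11.69 on chow and 11.52 in the Chrebp-null pool against 11.79 in the 2-week WT pool. Slco2a1, a prostaglandin carrier, stood at -0.81 on 3 weeks of fructose and 0.49 in the Chrebp-null comparison. Slc22a7, the organic anion carrier OAT2, stood at -0.01 and -0.58, and the 2-week WT pool lay -1.04 from chow.

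Of 16 other efflux pumps and carriers, none was past 2-fold in either comparison. On 3 weeks of fructose all 13 assessed lay below chow, between -0.81 and -0.07 with a median of -0.30, where 56.5% of all genes lay below chow. Abcb11, the bile salt export pump, stood at -0.62, Abcb4, the phospholipid flippase of bile, at -0.58, and Abcg5, a sterol pump subunit, at -0.56. In the 2-week WT pool 3 of 13 lay below chow, where 55.5% of all genes did, and the median was 0.11. All 12 assessed between the WT fructose pools read below 0 for 3 over 2 weeks, where 52.2% of all genes did, with a median of -0.43. In the Chrebp-null comparison 7 of 12 lay above 0, near the 63.4% of all genes, with a median of 0.09. The drug and conjugate pumps Abcc1 (MRP1) and Abcb1a stood at 0.70 and 0.69, and the sterol pump subunits Abcg8 and Abcg5 at -0.57 and -0.44. Against the 3-week WT pool 11 of 12 lay above 0, where 62.1% of all genes did, with a median of 0.65. Abcb1a at 1.26 and Abcc1 at 1.03 were past 2-fold there, where 5.33% of all genes were. The 5 proteins that anchor such carriers at the membrane, among them the NHERF scaffold Slc9a3r1 and the Abcc2 partner radixin (Rdx), lay between -0.27 and 0.13 in the Chrebp-null comparison and between -0.60 and 0.01 on 3 weeks of fructose.

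Of 15 transcription factors known to control the carriers, none was at least 2-fold higher and 1, Bcl6, was at least 2-fold lower in each comparison, where 1.16% of all genes were in the fructose comparison and 1.43% in the Chrebp-null comparison. Bcl6, a repressor that is male-biased in liver, read 5.45 in the 3-week WT fructose pool against 7.11 on chow and 5.70 in the Chrebp-null pool against 7.28 in the 2-week WT pool. The 2-week WT pool stood 0.16 above chow, and the Chrebp-null pool stood 0.25 above the 3-week WT pool, so the Bcl6 calls were lost with the other WT pool in both comparisons. In the Chrebp-null pool against the 3-week WT pool, Ahr at 1.42 and the repressor Nr0b2 (SHP) at -1.46 were past 2-fold. Of all genes 5.33% were past 2-fold there. Nr0b2 stood at only -0.23 in the Chrebp-null comparison. The 2-week WT pool itself lay -1.16 from chow for Nr0b2, and the 3-week WT pool lay 1.23 above the 2-week pool. In the Chrebp-null comparison Nr1i3 (CAR) stood at 0.32, Nr1i2 (PXR) at -0.02, Nfe2l2 (NRF2) at 0.18, Nr1h4 (the bile acid receptor FXR) at -0.40 and Ahr, a xenobiotic sensor, at 0.53. Message levels do not measure the activity of these proteins.

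Targets of NRF2, the factor linked to Abcc2, Abcc3 and Abcc4, lay above the 2-week WT fructose pool in the Chrebp-null pool. Of 14 assessed, 5 were at least 2-fold higher, against 2.03% of all genes, and all 14 lay above 0 with a median of 0.82, where 63.4% of all genes lay above 0. Those past 2-fold included the cystine carrier Slc7a11 at 3.54, the carbonyl reductase Cbr3 at 2.43, sulfiredoxin (Srxn1) at 2.24 and the quinone reductase Nqo1 at 1.99. Quantile normalization, or removal of the trend with level, left 13 of 14 above 0 and the same count of 5. In the WT pool at 2 weeks Slc7a11 read 2.67 and Cbr3 2.85, both under the floor, so those differences are not exact. Slc7a11 and Cbr3 passed the floor only through the null pool, so they could only lie above 0. The same holds against the 3-week WT pool, where they read 2.79 and 2.65. In the Chrebp-null comparison the calls with both levels above the floor were Srxn1, Nqo1 and Ugdh, the last at 1.12. Against the 3-week WT pool 11 of 14 targets were at least 2-fold higher, where 398 of 11772 genes were. On 3 weeks of fructose 11 of 12 lay below chow, where 56.5% of all genes did, with a median of -0.44. Osgin1 at -1.98 was past 2-fold. With the 2-week pool, however, 3 of 12 lay below chow, where 55.5% of all genes did, and the median was 0.11. Beside these, the Abcc4 difference was 2.77, the Abcc3 difference 0.59 and the Abcc2 difference 0.25 in the Chrebp-null comparison.

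Targets of CAR and PXR, the receptors linked to Slco1a4 and Abcc3, lay above the 2-week WT fructose pool in the Chrebp-null pool. Of 11 assessed, 7 lay below chow on 3 weeks of fructose, where 56.5% of all genes did, and 3 were at least 2-fold lower, against 1.16% of all genes, namely the carboxylesterase Ces2a at -1.30 and the cytochromes Cyp2b10 at -1.17 and Cyp2c55 at -1.15, and the median was -0.77. With the 2-week pool 2 of 11 were at least 2-fold lower, where 2.19% of genes were past 2-fold, 10 lay below chow, where 55.5% of all genes did, and the median was -0.38. In the Chrebp-null comparison all 11 lay above 0, where 63.4% of all genes did, with a median of 0.52, and Cyp2c55 at 2.93 was past 2-fold. Against the 3-week WT pool 10 of 11 lay above 0, where 62.1% of all genes did. Against the chow WT pool 6 of 11 lay above 0, near the 57.4% of all genes, with a median of 0.21. In the fructose and Chrebp-null comparisons Slco1a4 stood at -1.36 and 1.09 and Abcc3 at -1.82 and 0.59.

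**Figure D5:**
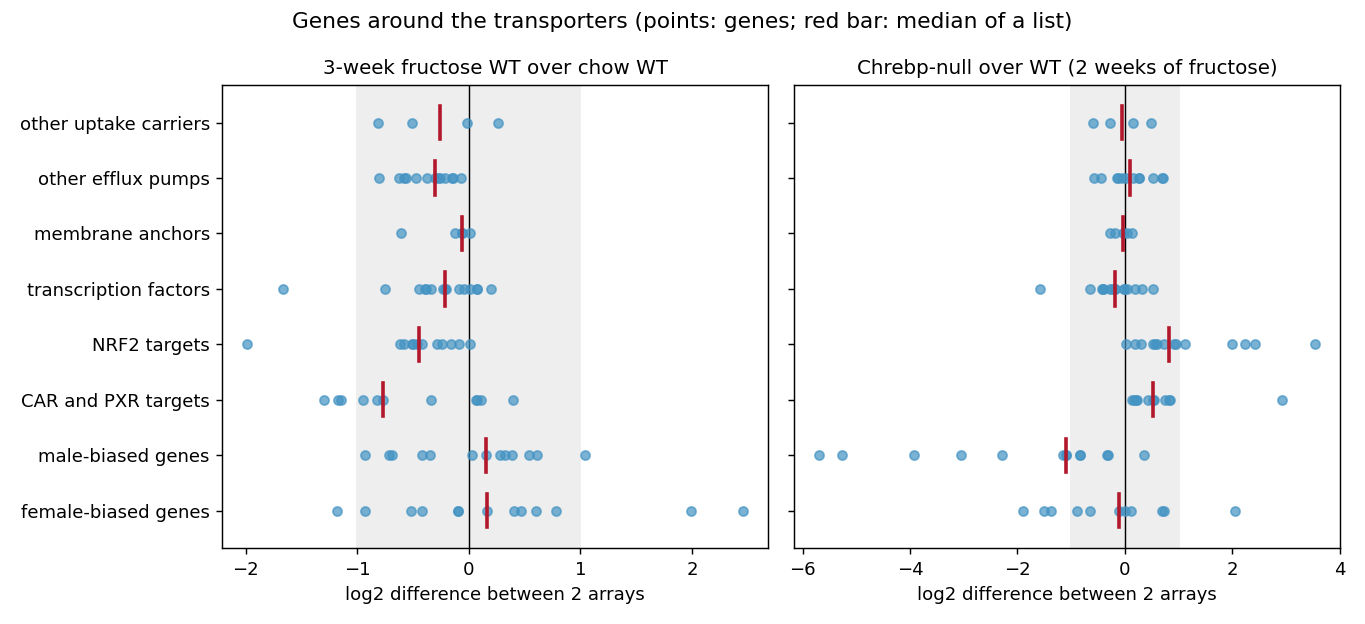
Log2 difference between 2 arrays (horizontal axis) of the assessed genes of 8 lists, 1 point per gene with a red bar at the median and a grey band under 2-fold, for 3-week fructose WT over chow WT at left and Chrebp-null over WT at right. Other efflux pumps lie below 0 at left with a median of -0.30, NRF2 targets above 0 at right with a median of 0.82, and male-biased genes reach -5.70 at right.

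Markers of cells other than hepatocytes were examined because bile duct cells also express efflux pumps such as Abcc3. Of the 5 cholangiocyte markers with a probe set, Krt19 and Cftr were below the floor in every pool. The log2 of the summed level of the 5 was 6.74 in the Chrebp-null pool against 6.48 in the 2-week WT pool, and 6.14 in the 3-week WT fructose pool against 6.34 on chow. Sox9, also found in some hepatocytes, read 5.74 in the Chrebp-null pool against 5.14 in the 2-week WT pool. The assessed markers did not share a direction. In the Chrebp-null comparison Sox9 stood at 0.60, Krt7 at 0.31 and Epcam at -0.27. On 3 weeks of fructose Sox9 stood at -0.64, Krt7 at 0.25 and Epcam at 0.05. The part of bile duct cells in the Abcc3 and Abcc4 values was not tested. Of 8 macrophage markers 1 was past 2-fold in the Chrebp-null comparison, the scavenger receptor Marco at 2.66, and the median was -0.06. Of 7 sinusoidal endothelial markers 1 was past 2-fold there, Lyve1 at -1.01. Of all genes 2.03% were called higher and 1.43% lower there. Against the 3-week WT pool Lyve1 stood at -0.69, and the 2-week WT pool itself lay 1.13 above chow. Of the 7 endothelial markers, 6 lay below 0 in the Chrebp-null comparison, where 36.5% of all genes did. All 7 lay above chow on 3 weeks of fructose, where 43.5% of all genes did. No marker of stellate cells or lymphocytes was past 2-fold in either comparison.

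Genes with the most similar course over the 4 pools were looked up for the 4 transporters whose range was at least 1, by Euclidean distance between mean-centred log2 levels among 11368 genes. With 4 pools such likeness is a description. Nearest to Slco1a1 were Hsd3b5 (distance 0.71), Serpina4-ps1 (1.12) and Elovl3 (1.96), all 3 from the male-biased list. Nearest to Slco1a4 were Mmab, a cobalamin enzyme, at 0.17, the cholesterol synthesis gene Dhcr7 at 0.24 and the aldolase Aldoc at 0.25. Nearest to Abcc3 were Qpctl, a glutaminyl cyclase, at 0.13, the insulin-responsive Igfbp1 at 0.24 and the vasopressin receptor Avpr1a at 0.29. Nearest to Abcc4 were the elongase Elovl7 at 0.14, Cbr3 at 0.24 and Lrtm2 at 0.28. Elovl7, Cbr3 and Lrtm2 read below the floor in all 3 WT pools, from 2.65 to 3.51, and above it in the Chrebp-null pool, from 5.28 to 5.81.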

How the data were processed

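Liver RNA combined within each group was labelled for Affymetrix arrays, per the labels' protocols. The deposited log2 values had been made by the authors with affy and RMA, per the submitters' processing notes, and were used unchanged. RMA background-corrects, normalizes and summarises probes, which shrinks big differences and those between dim levels. Its settings are not stated. Platform annotation gave 1 symbol to 23521 of 41345 probe sets, covering 22180 genes. All 8 gene identifiers were found in RefSeq's GRCm38.p6 table. A difference is a log2 level minus another, counted at 2-fold above the floor (50 percentile of mean levels). With 1 array per group there is no test. The calling was tested on simulated data with an assumed spread. Planted differences were well past 2-fold, in genes well above the floor, so calls near either limit were not tested. The transporters, gene lists and naming rule were chosen with earlier results of these data known. The rule names all transporters, any listed carrier, anchor or factor, up to 4 genes past 2-fold of other lists, and the 3 genes most alike. Other examples, and the null pool over chow, were added after values were seen. Alternatives covered the floor (none, or the 75 percentile), centring, quantile normalization, a lowess trend (fraction 0.3), probe sets, thresholds (1.5-fold, 3-fold), levels set at the floor and the other WT fructose pool. Python 3.11.15, numpy 2.4.6, pandas 2.3.3, statsmodels 0.14.6 and matplotlib 3.10.9 were used.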

Additional observations from a re-analysis of the deposited data

How the results depend on the processing

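With 1 array per group no array could be left out, and no paired analysis was possible because each group holds a single pool. In the fructose comparison 2 transporters were past 2-fold, and 1 was at least 3-fold lower, where 15 of 11717 genes were. With the 2-week WT pool in place of the 3-week pool 0 transporters were past 2-fold, and Slco1a4 stood at -0.86 and Abcc3 at -0.72. With that pool 2 transporters were at least 1.5-fold lower than chow, where 749 of 11622 genes were. Between the WT fructose pools 1 was past 2-fold and 0 past 3-fold. In the Chrebp-null comparison the count of 3 ranged from 2 at 3-fold to 4 at 1.5-fold or against the 3-week WT pool, where Abcc3 passed at 1.70. Of the 11631 genes assessed there, 46 were higher and 54 lower at 3-fold, and 1065 were higher and 441 lower at 1.5-fold. Median centring, quantile normalization and trend removal gave 48 differences of single transporters, of which 0 changed sign or call. The other WT fructose pool gave 16, of which 2 lost the call, 1 gained it and 2 uncalled ones changed sign (Slco1a1 at -0.20 and Abcc2 at 0.09 in the fructose comparison). Slco2b1 there turned to 0.37 with its other probe set and 0.05 with the mean of both. The other probe set lay below the floor in every pool, so the 0.37 was not assessed and carries no difference. Over these 3 scalings Slco1a1 lay between -6.35 and -6.21 and Abcc4 between 2.65 and 2.77 in the Chrebp-null comparison. With levels under the floor set at the floor, Slco1a1 was -5.55. Slco1a4, between 1.04 and 1.10 over the scalings, lay close to the threshold of 1.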
